A study of Mus musculus with 13 samples.

Results

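The salivary progenitor markers are 8 genes that are commonly used to mark or sort stem and progenitor cells of the salivary gland, Kit and its ligand Kitl, Prom1, Lgr5, Bmi1, Cd44, Cd24a and Ly6a. They were chosen by their symbols, with earlier results of these data known, and all 8 were found among the 23364 genes of the files. With a minimum of 1 FPKM in at least 1 of the 13 samples, 14650 genes were tested, and the 8 markers were among them. Lgr5 passed this minimum through a single sample, E14.5 replicate 1.

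Kit is a receptor tyrosine kinase of stem cells, and its ligand stem cell factor is encoded by Kitl. In the developing submandibular gland, KIT signaling is known to expand progenitors of the epithelial end buds, and cells sorted by KIT, CD24, CD44, CD133 (encoded by Prom1) or SCA-1 (encoded by Ly6a) have been used to form salivary spheres. Lgr5 is a receptor for R-spondins that marks stem cells of several epithelia, and Bmi1 is a Polycomb protein needed for stem cell renewal. These markers are not restricted to the epithelium, since mast cells and melanocytes also use Kit, endothelial cells and leukocytes Ly6a, and leukocytes and mesenchyme Cd44.

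RNA of whole submandibular glands of C57BL/6 mice with no treatment was sequenced at embryonic days E14.5 (3 samples), E16.5 and E18.5 (2 samples each), at postnatal day P5 and at the ages of 4wk and 12wk in weeks (2 samples each). Embryonic samples were pools, of 3 animals for E14.5 and of 2 animals for the later embryonic days. Sex was not determined in embryos, the P5 mice are described both as male and as of undetermined sex, and the adult glands were from males, so sex and age cannot be told apart in comparisons with the adult samples. The stages compared were embryo (the 7 samples up to E18.5), neonatal (the 2 P5 samples) and adult (the 4 samples of 4wk and 12wk). As in the study, comparisons of stages took samples of different time points as replicates of their stage. Their standard errors and p values thus include change between time points and do not measure the spread between replicates of a time point.

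Levels are given in FPKM (reads on a gene, divided by its length and by the total of the sample), which can be compared between genes of different length. The reads on genes were between 5817293 in 4wk replicate 1 and 48314162 in P5 replicate 1. The 10 highest genes took as little as 5.93% and never above 16.501% of the FPKM of an embryonic sample, against 29.2% and 31.1% in the P5 samples and 48.1% to 61.1% in adult ones. Each level in the adult samples is thus a share of a total that a few genes fill, and every result below is given for the deposited FPKM and, where it changes, for FPKM rescaled by median-of-ratios factors. Between embryo and adult, the median log2 fold change of all tested genes was -0.75 on deposited and -0.05 on rescaled values. In whole glands, fewer cells that express a gene and less RNA of it in each cell cannot be told apart.

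The epithelial markers Epcam, Cdh1, Krt8 and Krt18 were expressed in all 13 samples, and Epcam lay between 101 and 307 FPKM. Libraries stood apart from their groups at E14.5 and at 12wk. E14.5 replicate 1 held 101 FPKM of Epcam against 163 and 159 in the other E14.5 samples, 2991 FPKM of the embryonic globin Hbb-y against 334 and 670, and 5.604 FPKM of the mast cell protease Cpa3 against 60.8 and 40.6. It also had the lowest Kit, Kitl, Prom1, Bmi1, Cd44, Cd24a and Ly6a and the highest Lgr5 of its time point. Values without it are therefore given, on deposited FPKM only, for the calls that use E14.5. The library labelled 12wk replicate 1 held less of the secretory genes Smgc (0.154 FPKM against 58.6), Muc19 (0.0252 against 2.19) and Dcpp1 (614 against 2459) than replicate 2. Without it, the log2 fold changes from embryo to adult were -1.44 (Kit), -2.17 (Kitl) and 2.48 (Ly6a), and that of Kit from P5 to adult was -2.05, and these 4 calls were kept.

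Kit, the receptor, had its highest mean at P5 and fell between P5 and 4wk, with no difference among the time points up to P5 that passed on deposited values. Over the embryonic days, Kit measured 9.18, 14.7 and 16.9 FPKM (E14.5), 12.5 and 25.3 FPKM (E16.5) and 18.1 and 14.6 FPKM (E18.5). After birth, Kit was at 23.2 and 24.5 FPKM (P5), 4.58 and 5.51 FPKM (4wk) and 4.35 and 4.99 FPKM (12wk). Both P5 samples lay above every other sample except E16.5 replicate 2, and the 4 adult samples lay below all others. The mean was 15.9 ± 5.09 FPKM (SD, n = 7) in the embryo, 23.8 ± 0.920 FPKM (SD, n = 2) at P5 and 4.86 ± 0.507 FPKM (SD, n = 4) in the adult. The log2 fold change from P5 to adult was -2.09 (standard error 0.28, limma adjusted p = 0.000116), and it was -1.49 (adjusted p = 0.00183) after rescaling. From embryo to adult the log2 fold change was -1.48 (standard error 0.20, adjusted p = 1.41e-05). After rescaling it was -0.64 (adjusted p = 0.0133), which is below the fold change required for a call. Without E14.5 replicate 1 the deposited values gave -1.59. From embryo to P5, Kit differed by 0.61 on the log2 scale (adjusted p = 0.0884), also below that fold change. In the order of mean levels, 12wk and 4wk did not differ beyond their spread (adjusted p = 0.909), and neither did any neighbors among E14.5, E18.5, E16.5 and P5. The step between them, from 4wk up to E14.5, was 1.24 on the log2 scale (adjusted p = 0.00161). As a log2 fold change of 4wk against E14.5 it was -1.48 without E14.5 replicate 1, and after rescaling it was -0.37 (adjusted p = 0.257) and no longer passed. From E14.5 to P5 Kit had a log2 fold change of 0.81 (adjusted p = 0.0267) on deposited values, and of 1.09 (adjusted p = 0.00695) on rescaled values, which passed, as did 19.9% of all genes. Without E14.5 replicate 1 the deposited difference from E14.5 to P5 was 0.57. The rescaled difference was not computed without that sample. Its rescaled Kit was 6.84 FPKM, against 11.4 and 12.9 FPKM in the other E14.5 samples, so the rescaled call may rest on it.

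Kitl, the ligand, was highest in the embryo, and the step in which its fall passed was the one before that of its receptor. In the embryo, Kitl measured 27.4, 62.9 and 61.0 FPKM (E14.5), 33.9 and 34.2 FPKM (E16.5) and 43.5 and 39.4 FPKM (E18.5). After birth, Kitl was at 14.6 and 13.6 FPKM (P5), 10.6 and 8.49 FPKM (4wk) and 7.97 and 6.69 FPKM (12wk). All embryonic samples lay above both P5 samples, and both P5 samples lay above the 4 adult samples. From embryo to P5 the log2 fold change was -1.49 (standard error 0.27, limma adjusted p = 0.00276), and from embryo to adult it was -2.18 (standard error 0.21, adjusted p = 6.57e-07). After rescaling, these log2 fold changes were -1.23 (adjusted p = 0.0110) and -1.30 (adjusted p = 0.000143), and both still passed. The difference between P5 and adult was -0.69 on the log2 scale (adjusted p = 0.0653) and did not pass, and it was -0.07 after rescaling. Without E14.5 replicate 1 the log2 fold change from embryo to adult was -2.28 and from embryo to P5 -1.59. Among the time points, the fall that passed lay between E18.5 and P5 (log2 fold change -1.49, adjusted p = 0.00838).

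**Figure D1:**
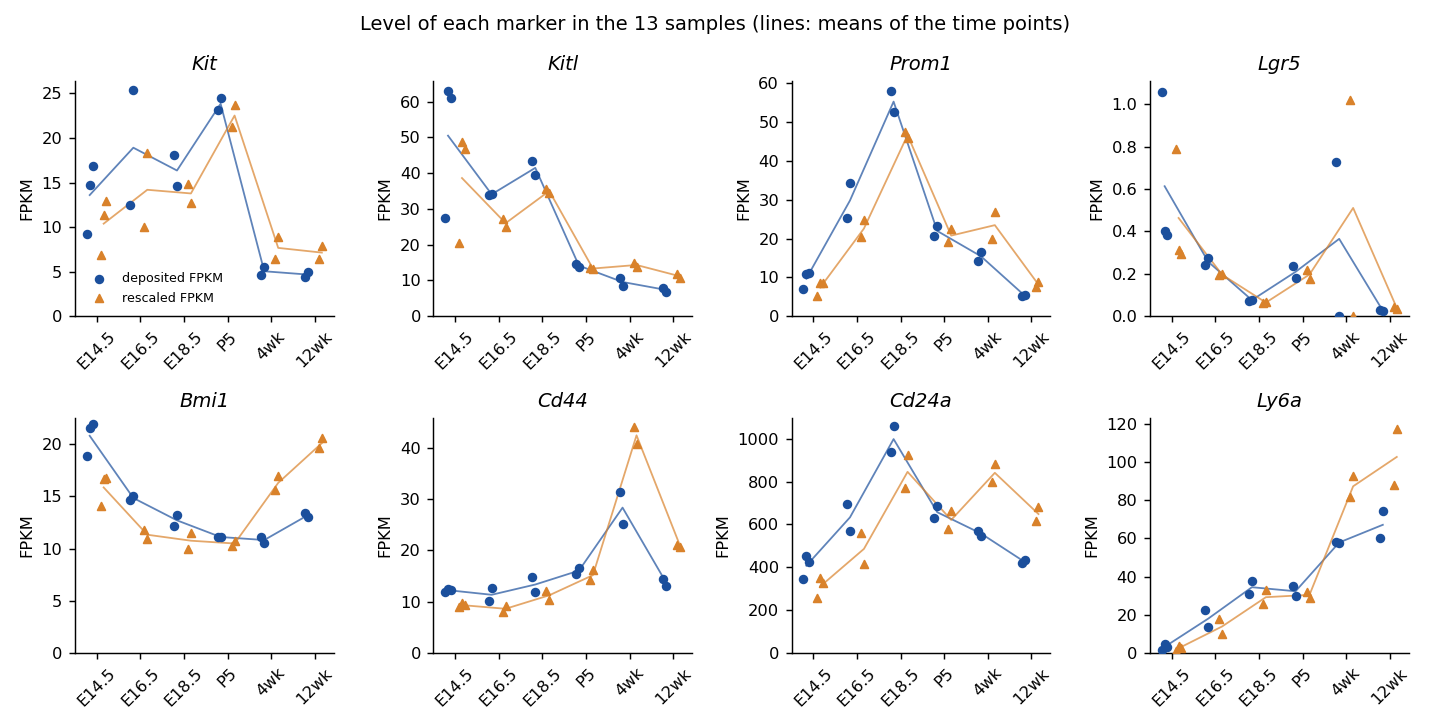
Level of each of the 8 markers in the 13 samples, as deposited FPKM (circles) and as FPKM rescaled by median-of-ratios factors (triangles), with lines through the means of the 6 time points. Kit drops between P5 and 4wk and Kitl between E18.5 and P5 on both scales, while the means of Bmi1 and Cd24a over the adult samples are below those over the embryonic samples on deposited values and above them on rescaled values.

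The ratio of Kit to Kitl FPKM in a sample does not depend on how samples are scaled. The embryonic ratios were 0.335, 0.234 and 0.277 (E14.5), 0.368 and 0.740 (E16.5), and 0.417 and 0.370 (E18.5). At P5 they were 1.59 and 1.79, the 2 samples in which receptor RNA exceeded ligand RNA. The adult ratios were 0.431 and 0.649 (4wk), and 0.546 and 0.746 (12wk). The geometric mean was 0.368 in the embryo and 0.581 in the adult, a difference of 0.66 on the log2 scale. A two-sided exact permutation test with 330 labelings of 4 of the 11 samples as adult gave p = 0.0545. It takes samples of different embryonic days and of different adult ages as replicates of their stage. Its p thus does not measure the spread between replicates of a time point. Adult and embryonic ratios overlapped. Without E16.5 replicate 2, the embryonic sample with the highest ratio, the difference was 0.83 (exact permutation test, p = 0.00952). Every adult ratio then lay above every embryonic one, so this p is the smallest that the test can give for those samples. With each of the other 10 samples left out in turn, the exact permutation p lay between 0.05 and 0.15, the highest without 12wk replicate 2 (difference 0.54). With 2 samples at P5, no exact test of that ratio against a single time point could reach 0.05.

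**Figure D2:**
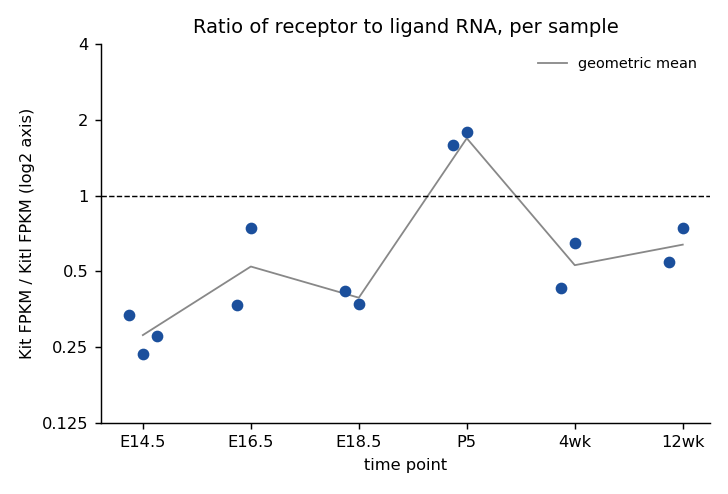
Ratio of Kit to Kitl FPKM in each sample by time point, on a log2 axis, with a line through the geometric means and a dashed line at equal levels. Both P5 samples, at 1.59 and 1.79, lie above 1, and the other 11 samples lie between 0.234 and 0.746.

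The genes of this receptor and ligand lie on different chromosomes, Kit (ENSMUSG00000005672.6) on chromosome 5 from 75970941 to 76052747 and Kitl (ENSMUSG00000019966.10) on chromosome 10 from 99478264 to 99563047, both on the plus strand of mm9. Their promoters are shown because the falls of ligand and receptor RNA passed in different steps. The 250 bases upstream of each start site are from RefSeq for GRCm38.p6, a later build than the mm9 of the expression values, at chr5:75574737-75574986 and chr10:100015571-100015820, both on the plus strand. Capitals mark matches to the GC box (GGGCGG), the CCAAT box (CCAAT), the TATA box (TATAAA) and the E-box (CACGTG), searched on both strands.
Kit: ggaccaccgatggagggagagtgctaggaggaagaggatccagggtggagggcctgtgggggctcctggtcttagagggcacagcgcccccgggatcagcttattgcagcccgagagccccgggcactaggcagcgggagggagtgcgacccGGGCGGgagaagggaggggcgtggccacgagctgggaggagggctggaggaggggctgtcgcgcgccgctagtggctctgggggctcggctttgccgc
Kitl: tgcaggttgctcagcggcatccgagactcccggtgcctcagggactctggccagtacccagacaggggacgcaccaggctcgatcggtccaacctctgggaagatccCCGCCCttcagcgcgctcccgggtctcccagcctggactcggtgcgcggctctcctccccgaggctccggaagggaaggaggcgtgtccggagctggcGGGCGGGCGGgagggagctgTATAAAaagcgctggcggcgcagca
The Kit promoter held 1 GC box, which begins 98 bases before the start site. The Kitl promoter held 3 GC boxes, of which those at 45 and 41 bases before the start site overlap, and a TATA box that begins 25 bases before it. Of all 27025 promoters searched over the same length, 32.9% held a GC box, 34.5% a CCAAT box, 12.97% a TATA box and 6.05% an E-box. The content of G and C was 70.8% for Kit and 69.2% for Kitl, against a median of 52.0% over all promoters. These matches are a description of the letters and were not tested against expression.

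Mast cells use KIT for survival, and their markers were therefore read beside Kit. The summed level of 7 mast cell markers (Cpa3, Mcpt4, Cma1, Tpsb2, Fcer1a, Ms4a2 and Hdc) ranged from 11.2 to 364 FPKM over the embryonic samples and from 5.90 to 8.80 FPKM over the adult ones, and the P5 samples held 68.3 and 71.6 FPKM. Of the 5 that were tested, 4 fell from embryo to adult, as did Kit on deposited values, where 38% of all tested genes fell. From P5 to adult, 4 of the 5 were lower as well, where 3046 of 14650 tested genes were. After rescaling 2 of the 5 were lower, where 1250 of 14601 tested genes were. Between E18.5 and P5, Cpa3 went from 101 and 131 FPKM to 13.1 and 14.8 FPKM, while Mcpt4 went from 8.97 and 18.4 FPKM to 11.6 and 13.3 FPKM. The part of mast cells in the fall of Kit from P5 to adult was not tested. The summed level of 5 melanocyte markers was highest at P5 (3.57 and 3.86 FPKM), against 1.28 to 2.95 FPKM in the embryonic and 0.156 to 1.26 FPKM in the adult samples. Of these, Pmel made up most of the P5 sum, with 2.99 and 2.74 FPKM, and had at most 0.545 FPKM in the adult samples. Its log2 fold change from P5 to adult was -1.53 (limma adjusted p = 0.000484), and -1.29 (adjusted p = 0.00453) after rescaling. The other markers did not share a clear peak at P5. Tyr had means of 0.763 (E14.5), 0.801 (E16.5), 0.667 (E18.5), 0.696 (P5), 0.249 (4wk) and 0.372 FPKM (12wk). Dct had its highest mean at 4wk (0.194 FPKM) and Mlana at E14.5 (0.104 FPKM). Tyrp1, another defining gene, was at or below 0.0457 FPKM in all 13. The part of melanocytes in the course of Kit was not tested.

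**Figure D3:**
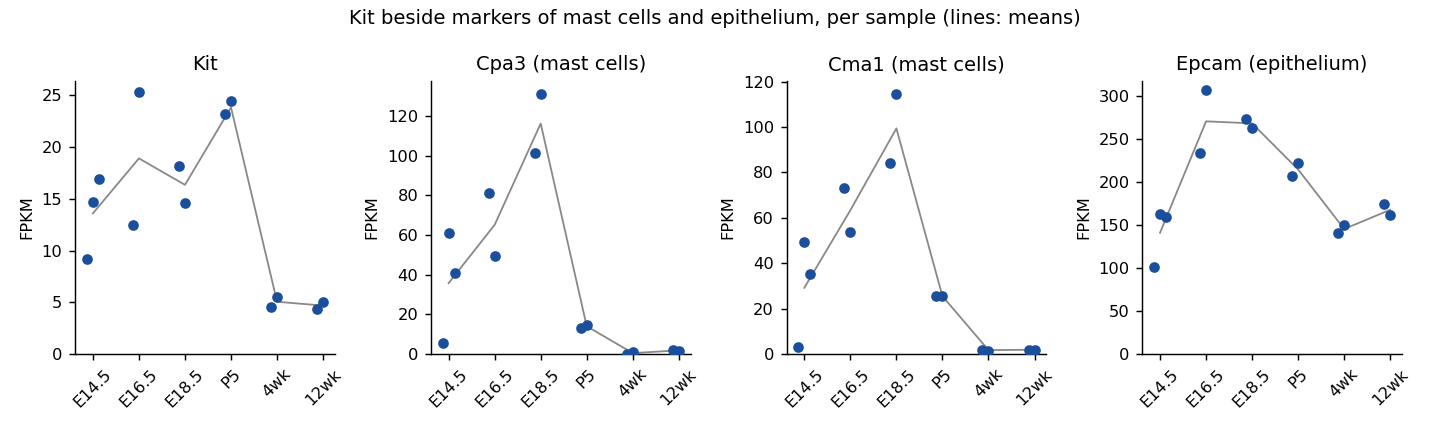
FPKM of Kit, of the mast cell genes Cpa3 and Cma1 and of the epithelial gene Epcam in each of the 13 samples by time point, with lines through the means. Cpa3 and Cma1 peak at E18.5 and are lower at P5, where the mean of Kit is highest. All 4 genes are lower at 4wk than at P5 on these deposited values, and rescaled values are not shown. No epithelial marker was called from P5 to adult, where 23.1% (deposited) and 14.6% (rescaled) of all tested genes were. The median log2 fold change of the 4 epithelial markers was -0.93 on deposited values, against -0.53 over all tested genes. After rescaling it was -0.25, against -0.04.

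Prom1 (ENSMUSG00000029086.8, chromosome 5, 44384864 to 44493271, minus strand of mm9), which encodes a cholesterol-binding protein of apical membrane protrusions, rose through the embryo and then fell. Embryonic Prom1 measured 6.95, 10.9 and 11.2 FPKM (E14.5), 25.4 and 34.2 FPKM (E16.5) and 57.9 and 52.6 FPKM (E18.5). After birth, Prom1 was at 20.7 and 23.2 FPKM (P5), 14.3 and 16.6 FPKM (4wk) and 5.11 and 5.55 FPKM (12wk). The E18.5 samples were the highest and the 12wk samples the lowest. The rise from E14.5 to E16.5 was 1.54 on the log2 scale (standard error 0.19, limma adjusted p = 0.000407), and 1.34 (adjusted p = 0.000335) without E14.5 replicate 1. The fall from E18.5 to P5 was -1.29 (adjusted p = 0.00252) and that from 4wk to 12wk -1.37 (adjusted p = 0.00194), both as log2 fold changes. All 3 steps passed after rescaling too, with log2 fold changes of 1.51, -1.14 and -1.41.

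The comparison of stages averages over this course of Prom1. Its mean was 28.5 ± 20.7 FPKM (SD, n = 7) in the embryo and 10.4 ± 5.92 FPKM (SD, n = 4) in the adult, which passed at -1.17 on the log2 scale (standard error 0.54, limma adjusted p = 0.0596). The ranges overlapped, since all E14.5 samples lay within the adult range. The call was lost without E16.5 replicate 2 (log2 fold change -1.07, adjusted p = 0.101), without E18.5 replicate 1 (-0.95, 0.103) or replicate 2 (-0.97, 0.104), and without 12wk replicate 1 (-0.93, 0.169) or replicate 2 (-0.96, 0.160). Without E14.5 replicate 1 it was -1.43 (adjusted p = 0.0166). After rescaling the log2 fold change was -0.30 (adjusted p = 0.652). Exons of Prom1 overlap Gm16401 on the opposite strand in a gene annotation other than the UCSC genes that the authors counted on. Their counting left out reads that lay on more than 1 gene. Whether reads of this overlap were left out or counted for Prom1 was not checked.

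Cd24a (ENSMUSG00000047139.8, chromosome 10, 43298975 to 43304068, plus strand of mm9), which encodes a small anchored surface glycoprotein, was the highest of the 8 markers in every sample. Before birth, Cd24a measured 346, 452 and 423 FPKM (E14.5), 696 and 570 FPKM (E16.5) and 939 and 1059 FPKM (E18.5). After birth, Cd24a was at 629 and 685 FPKM (P5), 571 and 545 FPKM (4wk) and 419 and 432 FPKM (12wk). As for Prom1, both E18.5 samples were the highest. The rise from E14.5 to E18.5 was 1.30 on the log2 scale (standard error 0.16, limma adjusted p = 0.000161), a comparison in which 12.1% of all tested genes passed. It was 1.19 without E14.5 replicate 1 and 1.45 after rescaling, and both passed. The steps from E14.5 to E16.5 (0.64), E16.5 to E18.5 (0.66) and E18.5 to P5 (-0.60) were each below the fold change required. Between embryo and adult the log2 fold change was -0.29 (adjusted p = 0.361) on deposited and 0.66 (adjusted p = 0.0834) on rescaled values, so that its sign depends on the scaling. Of the 50-base windows of the Cd24a transcripts, 80.2% occur at 1 place in mm9, and reads from the others were left out by the authors' counting, so Cd24a is undercounted.

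The correlation of Prom1 and Cd24a over the 13 samples was the highest among the 28 pairs of markers (Pearson r = 0.917 of log2(FPKM + 1)), and the lowest was that of Bmi1 and Ly6a (r = -0.874). These values are a description, as the points share time points and the total of each sample.

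Ly6a (ENSMUSG00000075602.4, chromosome 15, 74825308 to 74828064, minus strand of mm9), which encodes the surface antigen SCA-1, had the largest rise of the 8 from embryo to adult. Embryonic samples held Ly6a at 1.45, 4.72 and 3.29 FPKM (E14.5), 22.3 and 13.6 FPKM (E16.5) and 31.0 and 37.8 FPKM (E18.5). After birth, Ly6a was at 34.9 and 29.7 FPKM (P5), 58.3 and 57.3 FPKM (4wk) and 59.9 and 74.2 FPKM (12wk). The 4 adult samples lay above all others, and of the P5 samples one lay within the range of E18.5 and the other just below it. From embryo to adult the log2 fold change was 2.47 (standard error 0.65, limma adjusted p = 0.00344), 3.35 (adjusted p = 0.000642) after rescaling, and 2.10 (adjusted p = 0.00329) without E14.5 replicate 1. The step from E14.5 to E16.5 was 2.24 (adjusted p = 0.000702), and 1.90 (adjusted p = 0.000447) without that sample. From embryo to P5 the log2 fold change of 1.54 (adjusted p = 0.173) did not pass, whereas without E18.5 replicate 2 it was 1.83 (adjusted p = 0.0765) and passed. Of the 50-base windows of Ly6a, 87.2% occur at 1 place in mm9 and the others at up to 3, so Ly6a is undercounted too.

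Endothelial cells and leukocytes also express Ly6a, and their markers were read beside it. The 8 endothelial markers summed to between 143 and 178 FPKM in the embryonic and between 30.4 and 55.3 FPKM in the adult samples. All 8 fell on deposited values, where 38% of all tested genes did. After rescaling 4 fell, where 2147 of 14601 tested genes did. The 8 leukocyte markers summed to between 41.1 and 55.5 FPKM in the embryo, to 86.6 and 103 FPKM at P5 and to between 35.9 and 63.9 FPKM in the adult. From embryo to P5, 4 of these 8 were higher on either scale, where 606 of 14650 (deposited) and 813 of 14601 tested genes (rescaled) were. From embryo to adult none passed on deposited FPKM, with a median log2 fold change of 0.42. After rescaling 3 were higher, where 2020 of 14601 tested genes were. The part of leukocytes in the course of Ly6a was not tested. The tested genes most like Ly6a over the 13 samples were Il10rb (r = 0.981), Tspan13 (r = 0.979) and Bhlha15 (r = 0.979), the last a transcription factor of secretory acinar cells.

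Cd44 (ENSMUSG00000005087.10, chromosome 2, 102651298 to 102741822, minus strand of mm9), the hyaluronan receptor, peaked at 4wk. In the embryo, Cd44 measured 12.0, 12.5 and 12.3 FPKM (E14.5), 10.1 and 12.6 FPKM (E16.5) and 14.8 and 11.9 FPKM (E18.5). After birth, Cd44 was at 15.5 and 16.6 FPKM (P5), 31.5 and 25.2 FPKM (4wk) and 14.3 and 13.1 FPKM (12wk). Both 4wk samples, the shallowest of the series, lay above all others. From embryo to adult the log2 fold change was 0.65 (standard error 0.20, limma adjusted p = 0.00983) on deposited values, below the fold change required, and 1.54 (adjusted p = 2.07e-05) after rescaling, where it passed. From P5 to 4wk it was 0.78 (adjusted p = 0.00155) on deposited and 1.43 (adjusted p = 1.08e-05) on rescaled values, of which the second passed. The fall from 4wk to 12wk, a log2 fold change of -0.99 (adjusted p = 0.00227), lay just under the threshold, and was -1.15 without 4wk replicate 2 and -1.05 without 12wk replicate 1, which passed. Against the embryo, 4wk passed with log2 fold changes of 1.14 over E14.5, 1.25 over E16.5 and 1.03 over E18.5, where 50.9%, 45.8% and 34.6% of all tested genes passed. Without E14.5 replicate 1 the first was 1.12. Without 4wk replicate 1 the differences over E14.5 (0.98) and E18.5 (0.88) no longer passed, nor did that over E18.5 without E18.5 replicate 2 (0.88), whereas all 3 passed after rescaling (2.07, 2.18 and 1.83).

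Bmi1 (ENSMUSG00000026739.7, chromosome 2, 18598645 to 18608256, plus strand of mm9), a core subunit of Polycomb repressive complex 1, passed in no comparison of stages or time points on deposited values. Before birth, Bmi1 measured 18.9, 21.6 and 21.9 FPKM (E14.5), 14.6 and 15.1 FPKM (E16.5) and 12.2 and 13.2 FPKM (E18.5). After birth, Bmi1 was at 11.1 and 11.1 FPKM (P5), 11.1 and 10.5 FPKM (4wk) and 13.4 and 13.03 FPKM (12wk). The E14.5 samples lay above all others. The largest difference between 2 time points, from E14.5 to 4wk, was -0.88 on the log2 scale (limma adjusted p = 1.42e-05) and below the fold change required, as it was at -0.95 without E14.5 replicate 1. After rescaling it was 0.040 (adjusted p = 0.765). From embryo to adult Bmi1 had a log2 fold change of -0.43 (adjusted p = 0.0287) on deposited and 0.46 (adjusted p = 0.0159) on rescaled values, so the direction turned with the scaling. Of its 50-base windows, 80.9% occur at 1 place in mm9, against 100% for Kit, Kitl, Prom1 and Cd44, so Bmi1 is undercounted.

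Lgr5 (ENSMUSG00000020140.9, chromosome 10, 114887367 to 115024836, minus strand of mm9) was the lowest of the 8 markers in every sample. Over the embryonic days it measured 1.06, 0.402 and 0.381 FPKM (E14.5), 0.240 and 0.273 FPKM (E16.5), and 0.0734 and 0.0785 FPKM (E18.5). After birth, Lgr5 was at 0.237 and 0.181 FPKM (P5), 0.730 and 0 FPKM (4wk), and 0.0292 and 0.0224 FPKM (12wk). In reads, recovered from the steps of the FPKM values, these were 96, 48 and 48 reads (E14.5), 41 and 48 reads (E16.5), 6 and 12 reads (E18.5), 54 and 36 reads (P5), 20 and 0 reads (4wk), and 3 reads in each 12wk sample. The value of 4wk replicate 1 thus rests on 20 reads, with a 95% Poisson interval from 0.446 to 1.13 FPKM, while the same interval for the count of 0 in 4wk replicate 2 reaches up to 0.0985 FPKM, with 3 reads worth 0.0801 FPKM. These limits cover counting error only. The 3 E14.5 samples lay above all other samples except 4wk replicate 1, and the 2 samples at 4wk differed by more than counting error. No comparison of Lgr5 between stages passed, with a log2 fold change of -0.19 (limma adjusted p = 0.381) from embryo to adult. Since a pseudocount of 1 FPKM is larger than nearly all its values, this scale understates any change of Lgr5. With a pseudocount of 0.1, Lgr5 passed as lower at E18.5 than at E14.5 (log2 fold change -1.89, standard error 0.74, adjusted p = 0.0666), where 19.4% of all genes passed. It also passed as lower at 12wk than at E14.5 (-2.38, standard error 0.74, adjusted p = 0.0125), where 61% passed. Without E14.5 replicate 1 Lgr5 did not reach the minimum for testing, so these differences have no value without it. Lgr5 was thus tested only through a sample of the time point in which it was called higher. This selection favors such calls, and no conclusion on a fall of Lgr5 is drawn from them.

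By stage, 4 of the 8 markers were called between embryo and adult (limma adjusted p below 0.1 and a change by 1 or more on the log2 scale). Of all tested genes, 43.6% were called, a share close to that of the markers. Ly6a was higher in the adult, as were 5.58% of all tested genes, and Kit, Kitl and Prom1 were lower, as were 38% of them. The median log2 fold change of the 8 markers was -0.36, against -0.75 over all tested genes. After rescaling 3 of the 8 were called, Kitl lower and Cd44 and Ly6a higher, where 28.5% of 14601 tested genes were, and the medians were 0.21 for the markers and -0.05 for all genes. Between embryo and P5, Kitl was the single marker called, where 12.3% of all genes were, and between P5 and adult it was Kit, where 23.1% were. After rescaling these 2 calls stayed, with 9.48% and 14.6% of all genes called. The 3 comparisons share samples and are not independent of each other.

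**Figure D4:**
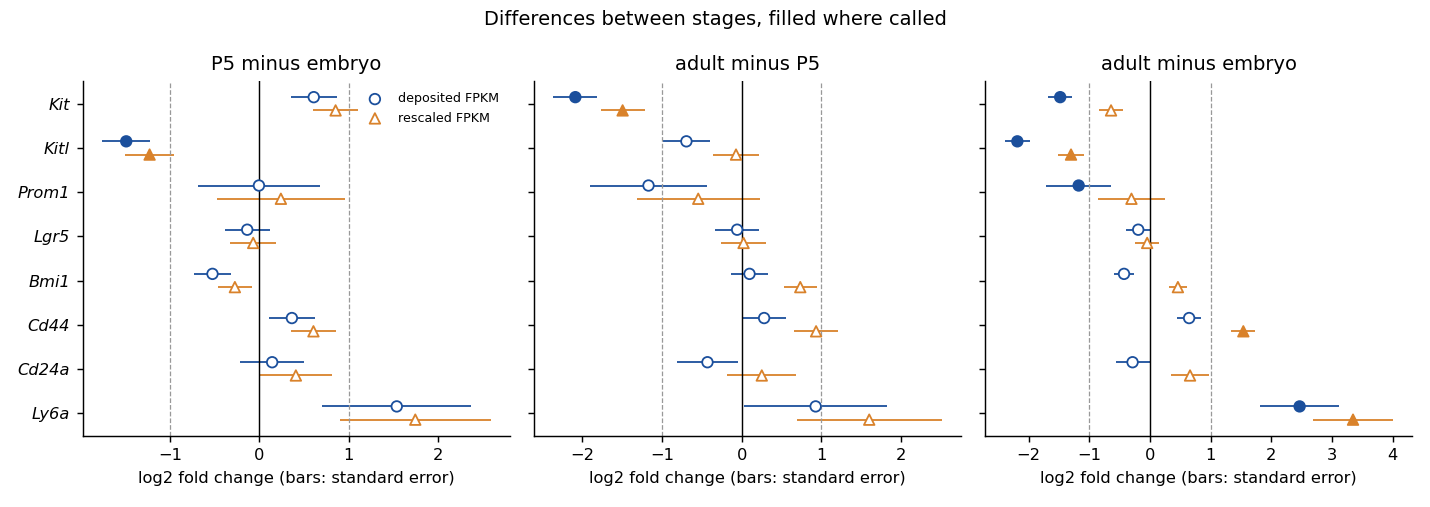
Log2 fold change of each marker between stages, with its standard error, on deposited FPKM (circles) and on rescaled FPKM (triangles), filled where called. Kit (adult minus P5), Kitl (P5 minus embryo and adult minus embryo) and Ly6a (adult minus embryo) are called on both scales, Kit and Prom1 (adult minus embryo) on deposited values and Cd44 (adult minus embryo) on rescaled values, and Bmi1 and Cd24a change sign with the scaling between embryo and adult.

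Between consecutive time points, Prom1 and Ly6a were called from E14.5 to E16.5, 2 of 8 markers where 5.15% of all tested genes were called. From E16.5 to E18.5 limma called 0 of the 8, where 2.94% of all genes were called. Prom1 had a log2 fold change of 0.88 (limma adjusted p = 0.0247) in this step, below the fold change required. On rescaled values Prom1 (log2 fold change 1.02) and Ly6a (1.06) were called in this step, where 2.49% of all genes were. From E18.5 to P5, Kitl and Prom1 were called, both lower, with 5.04% of all genes called. From P5 to 4wk it was Kit, with 24.3% of all genes called, and on rescaled values also Cd44 and Ly6a, both higher, with 15.2%. From 4wk to 12wk it was Prom1, with 5.15%. On deposited values Prom1 was thus called in 3 of the 5 steps, Kit, Kitl and Ly6a in 1 each, and Lgr5, Bmi1, Cd44 and Cd24a in none. In the test of any change over the 6 time points (limma F test, with the highest and lowest time point means at least 1 apart on the log2 scale), 6 of the 8 passed, all but Bmi1 and Lgr5, where 69.9% of all tested genes passed, again a share close to that of the markers.

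The level of a marker relative to the mean log2 level of the 4 epithelial markers in the same sample does not depend on scaling. The epithelial markers summed to between 304 and 529 FPKM at E14.5, between 1072 and 1371 FPKM at E16.5, and between 602 and 717 FPKM in the adult. On this relative log2 scale Kit had means of -3.01 ± 0.11 (SD, n = 3) at E14.5 and, with 2 samples each, -3.91 ± 0.42 (E16.5) and -4.07 ± 0.24 (E18.5) before birth, then -3.42 ± 0.09 (P5), -4.88 ± 0.15 (4wk) and -4.84 ± 0.22 (12wk). On this scale Kit was higher at E14.5 and P5 than between them, and lowest in the adult. The reference itself rose from E14.5 to E16.5. Mean FPKM went from 111 to 433 (Krt18), 124 to 403 (Krt8), 141 to 271 (Epcam) and 73.9 to 115 (Cdh1). Mean Kit went from 13.6 to 18.9 FPKM, so its relative fall in this step reflects the rise of the reference. Kitl had means of -1.17 ± 0.22 (SD, n = 3) at E14.5 and, again with 2 samples each, -2.97 ± 0.30 (E16.5) and -2.73 ± 0.11 (E18.5) before birth, then -4.18 ± 0.21 (P5), -3.96 ± 0.27 (4wk) and -4.19 ± 0.10 (12wk), with steps after E14.5 and after E18.5. Ly6a went from -5.23 ± 0.45 (SD, n = 3) at E14.5 to -1.35 ± 0.06 (SD, n = 2) at 4wk, while the means of Cd24a at the 6 time points stayed between 1.23 and 1.93. These relative levels were not tested.

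Other genes around these markers were read from 6 lists of related genes. Of 23 genes of KIT signaling, 8 were lower in the adult than in the embryo and 1 was higher, near the 38% and 5.58% of all tested genes, with a median log2 fold change of -0.84 against -0.75 over all. The falls were led by the Src family kinase Fyn (-2.46), the inhibitor Spred1 (-2.27) and the phospholipase Plcg1 (-1.83), and the transcription factor Etv1 (1.34) rose. Etv1 and the falls of Fyn and Spred1 also passed after rescaling, where 3 genes were higher and 3 lower and 28.5% of all genes were called.

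Of 14 tested genes of the LGR5 and R-spondin system, 7 were lower in the adult and none higher on deposited values, where 38% and 5.58% of all tested genes were, with a median log2 fold change of -0.97. They were led by the matrix protein Smoc2 (-2.91), the Wnt co-receptor Lrp5 (-1.57) and the ligand Rspo1 (-1.43). After rescaling 2 of 13 tested genes of this list were lower and 1 higher, where 2147 and 2020 of all 14601 tested genes were. Of 18 genes of Polycomb repressive complex 1, 9 were lower and none higher (median -1.09), beside 38% and 5.58% of all tested genes. They were led by the chromodomain subunits Cbx2 (-3.06) and Cbx6 (-2.34) and by Pcgf2 (-2.07), a paralog of Bmi1. After rescaling 4 were lower and 1 higher, beside 2147 and 2020 of 14601 tested genes, and Cbx2 was among the lower ones at -2.52.

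Of 16 tested ligands and partners of CD44, 7 were lower in the adult and 1 was higher (median -0.91), shares near those of all tested genes (38% and 5.58%). The hyaluronan synthase Has2 (-4.06), the metalloproteinase Mmp14 (-3.58) and the hyaluronan receptor Hmmr (-3.39) fell, and the ligand Spp1 (osteopontin) rose by 3.03. All 4 also passed after rescaling. Of 10 tested members of the Ly6 family other than Ly6a, 6 were higher and 2 lower, with a median log2 fold change of 1.39. Of all tested genes 5.58% were higher and 38% lower, with a median of -0.75. Ly6g6d (2.55), Ly6k (2.33) and Ly6d (2.03) rose, and Ly6h (-2.28) and Gpihbp1 (-1.37), which carries lipoprotein lipase across endothelium, fell. After rescaling 6 were higher and 1 lower, beside 2020 and 2147 of 14601 tested genes. Reads that close copies in this family share were left out by the authors' counting.

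Of 27 other genes used as salivary progenitor or lineage markers, 18 were lower in the adult and 3 higher (median -1.48), against 38% and 5.58% of all tested genes, and 10 were lower and 4 higher after rescaling, against 28.5% called in either direction. The keratin Krt15 (-4.23), the Ets factor Etv5 (-3.60) and the filament gene Nes (-3.37) fell most. The genes that rose were Ascl3 (3.68), a factor of a duct cell lineage, Bhlha15 (3.10) of acinar cells, and Prom2 (2.54), the paralog of Prom1, which itself fell on deposited values. Cd34 (-2.40) and Eng (-1.73), which endothelium also expresses, and Pdgfra (-2.27) of mesenchyme were among those lower in the adult, and are named after their values were seen. Markers of mesenchyme (7 of 8 lower) and endothelium (8 of 8 lower) moved in the same direction as most of these lists on deposited FPKM. After rescaling 7 of 8 mesenchyme and 4 of 8 endothelial markers were lower, where 2147 of 14601 tested genes were. Their part in the falls was not tested.

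Genes whose course over the 13 samples was most like that of a marker were named by the highest Pearson correlation of log2(FPKM + 1), as a description, since the samples share time points and scaling. For Kit they were Maml3 (r = 0.980), Klf10 (0.980) and Col6a6 (0.966), and for Kitl Fam111a (0.985), Scara5 (0.981) and Vps36 (0.976). For Prom1 they were Sppl2a (0.970), Cmpk1 (0.958) and Galntl6 (0.956), and for Cd24a C330021F23Rik (0.972), Mospd2 (0.952) and 3830406C13Rik (0.948). Bmi1 was most like Hsph1 (0.978), Gnl3l (0.975) and Mansc4 (0.960), and Cd44 most like Dbt (0.948), Dio1 (0.947) and Sowahd (0.947). For Lgr5 the closest were Xylt1 (0.952), Lpar3 (0.932) and Foxn3 (0.916), and the samples with the most Lgr5 were E14.5 replicate 1 and 4wk replicate 1.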

How the data were processed

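RNA-seq of the 13 samples was analyzed from the gene values of each sample, grouped by the time point in the sample labels. Single-end reads of 50 bp had been aligned by the authors with TopHat2 (version 2.0.13) and Bowtie2 (2.2.6), with mm9 as the genome. Reads at a single place were counted on UCSC genes with featureCounts, and the authors deposited FPKM values, for which they describe median normalization between samples. The deposited FPKM add up as shares of each sample's reads, with median-of-ratios factors from 0.617 to 1.38, so rescaling by these factors was run beside them. The steps between low FPKM of a gene give the worth of 1 read, and from them reads and depth (5817293 to 48314162 reads on genes) were computed. No count model was fitted.

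Genes that reached 1 FPKM in any sample were tested as log2(FPKM + 1) with limma 3.58.1 (R 4.3.3, eBayes with trend, Benjamini-Hochberg over all tested genes), once with 3 stages and once with 6 time points as groups. The criteria for a call followed the study, with a log2 fold change at or beyond 1 in either direction and an adjusted p under 0.1. The fit was tested on simulated data. Tables, exact permutation tests and figures were made in Python 3.11.15 (pandas 2.3.3, numpy 2.4.6, scipy 1.17.1 and matplotlib 3.10.9).

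The 8 markers, the 6 lists of related genes and the lists of cell type markers were chosen with earlier results of these data known. All 8 are given in every sample. From each list up to 3 called genes in each direction with the largest change from embryo to adult were named, and for each marker the 3 tested genes with the highest correlation. Alternative settings covered a pseudocount of 0.1, other filters, 2 rescalings, other variance models, an adjusted p below 0.05, a replicate block, stage means over time points, only the stages compared and each sample left out. Leaving out both 4wk samples was added after seeing the data. Promoters were read for the 5 markers that the RefSeq table lists.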

Additional observations from a re-analysis of the deposited data

Results flagged for a closer look

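A test for a sample far from its group (Dixon's ratio of the gap to the range) was run over the embryonic and the adult samples of the 8 markers, 16 groups in all, and chance alone gives about 1 in 20 such results. In the embryo, Lgr5 in E14.5 replicate 1 was at 1.057 FPKM, with the lowest embryonic sample at 0.0734 FPKM and a gap that was 0.666 of the range (critical value 0.568). In the adult, Lgr5 in 4wk replicate 1 was at 0.730 FPKM, where the other 3 adult samples held at most 0.0292 FPKM (gap 0.96 of the range, critical value 0.829). Ly6a in 12wk replicate 2 was at 74.241 FPKM, where the adult samples began at 57.3 FPKM (gap 0.846 of the range, critical value 0.829). Both stages hold more than 1 time point.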

How the results depend on the processing

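The call counts by stage kept to within 1.5 times in most settings. Between embryo and P5, 2 markers in place of 1 were called with means of time points, where Ly6a was added (log2 fold change 1.28), and between 1 and 2 when each sample was left out, with 2 without E18.5 replicate 2. Between P5 and adult, 2 in place of 1 were called with only these stages in the fit, with means of time points and without both 4wk samples, where Prom1 was added (-1.17, -1.17 and -1.86). The log2 difference of the Kit to Kitl ratio was 0.71 with a pseudocount of 1 (exact permutation test, p = 0.0424) and between 0.54 and 0.83 with each sample left out.

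Signs turned as follows, all as log2 fold changes that did not pass. With median-of-ratios rescaling they were 0.46 (Bmi1) and 0.66 (Cd24a) from embryo to adult, 0.24 (Prom1) from embryo to P5, 0.023 (Lgr5) and 0.25 (Cd24a) from P5 to adult, 0.013 (Kit) from E16.5 to E18.5, 0.068 (Ly6a) from E18.5 to P5, and 0.10 (Kitl), 0.16 (Prom1), 0.59 (Bmi1) and 0.44 (Cd24a) from P5 to 4wk. With totals that leave out the 36 top genes they were 0.092 (Bmi1) and 0.27 (Cd24a) from embryo to adult, 0.35 (Prom1) from embryo to P5, 0.0047 (Kit) from E16.5 to E18.5, 0.13 (Bmi1) and 0.24 (Ly6a) from E18.5 to P5, 0.26 (Bmi1) and 0.088 (Cd24a) from P5 to 4wk, and -0.076 (Ly6a) from 4wk to 12wk. A pseudocount of 0.1 gave 0.014 for Prom1 from embryo to P5 and -0.10 for Lgr5 from P5 to 4wk. Without both 4wk samples Cd44 was at -0.21 from P5 to adult.

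Leaving out single samples turned the sign of these differences, none of which passed on all samples. The ranges were from -0.26 to 0.22 for Prom1 from embryo to P5, from -0.25 to 0.014 for Lgr5 from P5 to adult, from -0.075 to 0.89 for Kit and from -0.26 to 0.041 for Cd44 from E14.5 to E16.5, from -0.61 to 0.36 for Kit from E16.5 to E18.5, from -0.23 to 0.054 for Ly6a from E18.5 to P5, from -0.27 to 0.52 for Lgr5 and from -0.076 to 0.0044 for Bmi1 from P5 to 4wk, and from -0.20 to 0.021 for Kit and from -0.75 to 0.037 for Lgr5 from 4wk to 12wk. The cause of these changes was not tested. The replicate numbers of the labels did not pair the samples (mean correlation of deviations -0.02 for equal and 0.01 for unequal numbers), and with them as a replicate block the markers called were 4 between embryo and adult, 1 between embryo and P5, 1 between P5 and adult, 4 over consecutive time points and 6 over any change, as without it. Lgr5 is limited by depth, with at most 96 reads.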
